A study of Saccharomyces cerevisiae with 15 samples.

Results

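The enzymes of yeast ethanol fermentation were followed through glucose removal, at the level of mRNA and of ribosome occupancy. They are the 3 pyruvate decarboxylase genes PDC1 (YLR044C), PDC5 (YLR134W) and PDC6 (YGR087C) and the 7 alcohol dehydrogenase genes ADH1 (YOL086C), ADH2 (YMR303C), ADH3 (YMR083W), ADH4 (YGL256W), ADH5 (YBR145W), ADH6 (YMR318C) and ADH7 (YCR105W). They were chosen by gene identity, not by their values, and all 10 were present among the 5703 genes analysed. The strain was YWG25, wild type of the Sigma1278b background, grown at 30 °C in the rich glucose medium YPD until the optical density was near 0.7. Libraries titled +GLU (with glucose) and -GLU (without it) numbered 3 each for RNA and 3 each for ribosome footprints, the mRNA fragments of about 28 nt that ribosomes shield from nuclease. A further 3 footprint libraries were made without cycloheximide, the elongation inhibitor added to the other cultures before harvest: 1 +GLU and 1 -GLU library harvested fast by filtration, and 1 -GLU library without that harvest. How long the -GLU cells had been without glucose is not stated in the labels.

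Pyruvate decarboxylase splits pyruvate into acetaldehyde and carbon dioxide with thiamine diphosphate as cofactor, and alcohol dehydrogenase reduces the acetaldehyde to ethanol, returning NAD+ to glycolysis. In glucose, budding yeast runs this route at a high rate even in air. When glucose is gone the flow can turn round: ethanol is oxidised to acetaldehyde, then to acetate and acetyl-CoA, and pyruvate goes to the mitochondrion. The genes divide this work. PDC1 and ADH1 are known as the main fermentative enzymes, PDC5 and PDC6 as minor decarboxylases, ADH2 as the glucose-repressed enzyme of ethanol oxidation, ADH3 as a mitochondrial enzyme, ADH4 as an enzyme of a separate, iron-type family, and ADH6 and ADH7 as NADPH-dependent reductases of a broad range of aldehydes.

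Several of these genes resemble each other closely enough to matter for reads of 28 nt. The opening 60 nt of the coding sequences of the decarboxylases are shown because they let the eye compare the copies; capitals mark the 15 positions at which the 3 genes are not all alike. The sequences are those of the RefSeq reference genome R64, looked up by gene identifier, and not of the Sigma1278b strain itself. PDC1 lies on chromosome XII (minus strand), PDC5 on chromosome XII (plus strand) and PDC6 on chromosome VII (minus strand), each with a coding sequence of 1692 nt in 1 exon.
PDC1: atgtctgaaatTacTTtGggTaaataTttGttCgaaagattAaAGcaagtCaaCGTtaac
PDC5: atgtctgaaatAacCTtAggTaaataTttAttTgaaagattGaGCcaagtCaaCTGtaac
PDC6: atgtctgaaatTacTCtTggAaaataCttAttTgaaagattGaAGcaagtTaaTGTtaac

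For ADH1 (chromosome XV, minus strand) and ADH2 (chromosome XIII, minus strand), both with a coding sequence of 1047 nt, capitals mark the 7 positions of the opening 60 nt at which the pair differs.
ADH1: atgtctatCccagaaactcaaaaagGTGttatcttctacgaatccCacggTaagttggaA
ADH2: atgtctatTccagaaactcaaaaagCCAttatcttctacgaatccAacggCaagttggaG

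Farther in, the pair shares an unbroken identical run of 189 nt, from coding nt 193 to 381. A read from its start fits both genes equally.
ADH1 and ADH2: ggtggtcacgaaggtgccggtgtcgttg

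Over the whole coding sequence ADH1 and ADH2 were identical at 88.8% of aligned positions, PDC1 and PDC5 at 87.2%, PDC1 and PDC6 at 75.0%, ADH1 and ADH5 at 73.2%, ADH1 and ADH3 at 69.9%, and ADH6 and ADH7 at 65.9%. Of all 28-nt windows, 19.5% in ADH1 and in ADH2 recur exactly elsewhere in the genome, against 4.50% in PDC1, 5.23% in PDC5, 0.961% in PDC6 and 0% in ADH3 to ADH7. With up to 2 mismatches allowed, 40.3% of the windows of ADH1, 40.7% of ADH2, 43.0% of PDC1 and 42.1% of PDC5 match another of the 10 genes. How the authors' counting placed such reads is not stated in the sources used here. The values of PDC5 and ADH2 where PDC1 or ADH1 was far more abundant, and the reverse, are therefore uncertain, and sums over the near-identical genes are given beside them. No coding sequence of the 10 genes overlapped that of another gene in the annotation.

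The RNA libraries held between 2423486 and 12560502 counts and the replicated footprint libraries between 2391712 and 8680468. The 10 genes took 0.570% to 1.21% of the RNA counts and 0.848% to 3.20% of the footprint counts. Replicates differed by more than counting error, with chi-square values per degree of freedom of 9.22 to 378. No label states whether replicates were separate cultures; the p-values therefore measure the spread between these libraries, which may be technical. Poly(A) selection was on DynaBeads for +GLU RNA replicates 2 and 3 and on cellulose for the other 4 RNA libraries, and removal of rRNA is described for +GLU RNA replicates 1 and 2 only among the RNA libraries. Replicate 3 of the -GLU RNA and of the -GLU footprints stood apart over all genes, by Spearman's rank correlation across genes. In -GLU RNA it correlated at 0.889 and 0.917 with replicates 1 and 2, against 0.975 between those. In -GLU footprints the values were 0.835 and 0.853 against 0.962. In +GLU RNA, replicate 1 stood apart less far, at 0.924 and 0.943 with replicates 2 and 3 against 0.980 between those. The counted gene length was longer in -GLU RNA 3, -GLU footprints 3 and +GLU RNA 1 than in all other libraries. What set these libraries apart was not tested. Among the 10 genes, replicate 3 of -GLU RNA and of -GLU footprints had the highest PDC1 and ADH1 and the lowest ADH2 of its group.

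In glucose, ADH1 and PDC1 were the most abundant mRNAs of the set. On the RPKM scale (reads per kilobase of gene, scaled to the library's total), which allows levels of different genes to be compared, the level of ADH1 mRNA was 4708 ± 1558 (SD, n = 3) and that of PDC1 mRNA 2807 ± 568 (SD, n = 3), ranks 39 and 79 of 5703 genes. The ranges of these genes overlapped, so their order was not resolved. ADH3 (363 ± 74.8 RPKM) and ADH6 (286 ± 19.6 RPKM) followed, with overlapping ranges, then ADH4 (110 ± 34.6 RPKM) and ADH5 (82.6 ± 24.4 RPKM), again overlapping. PDC5 (23.1 ± 3.78 RPKM), ADH2 (10.9 ± 0.805 RPKM), ADH7 (6.41 ± 1.70 RPKM) and PDC6 (1.43 ± 0.568 RPKM) formed the low end in that order without overlap between neighbours (SD, n = 3 for each). In footprints the order of the leading pair was resolved: PDC1, at 12442 to 14122 RPKM, ranked 5 of 5703 genes and ADH1, at 4616 to 7504 RPKM, ranked 33.

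Without glucose, ADH2 headed the set in both assays. Its mRNA ranked 6 of 5703 genes and its footprints ranked 6 as well, against ranks 5095 and 4650 in glucose. ADH1 and ADH3 came next with overlapping ranges, at 924 ± 752 and 847 ± 27.5 RPKM of mRNA (SD, n = 3). PDC1 mRNA stood at 203 ± 200 RPKM, a spread as wide as the mean, and overlapped ADH5 at 123 ± 59.5 RPKM (SD, n = 3).

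**Figure D1:**
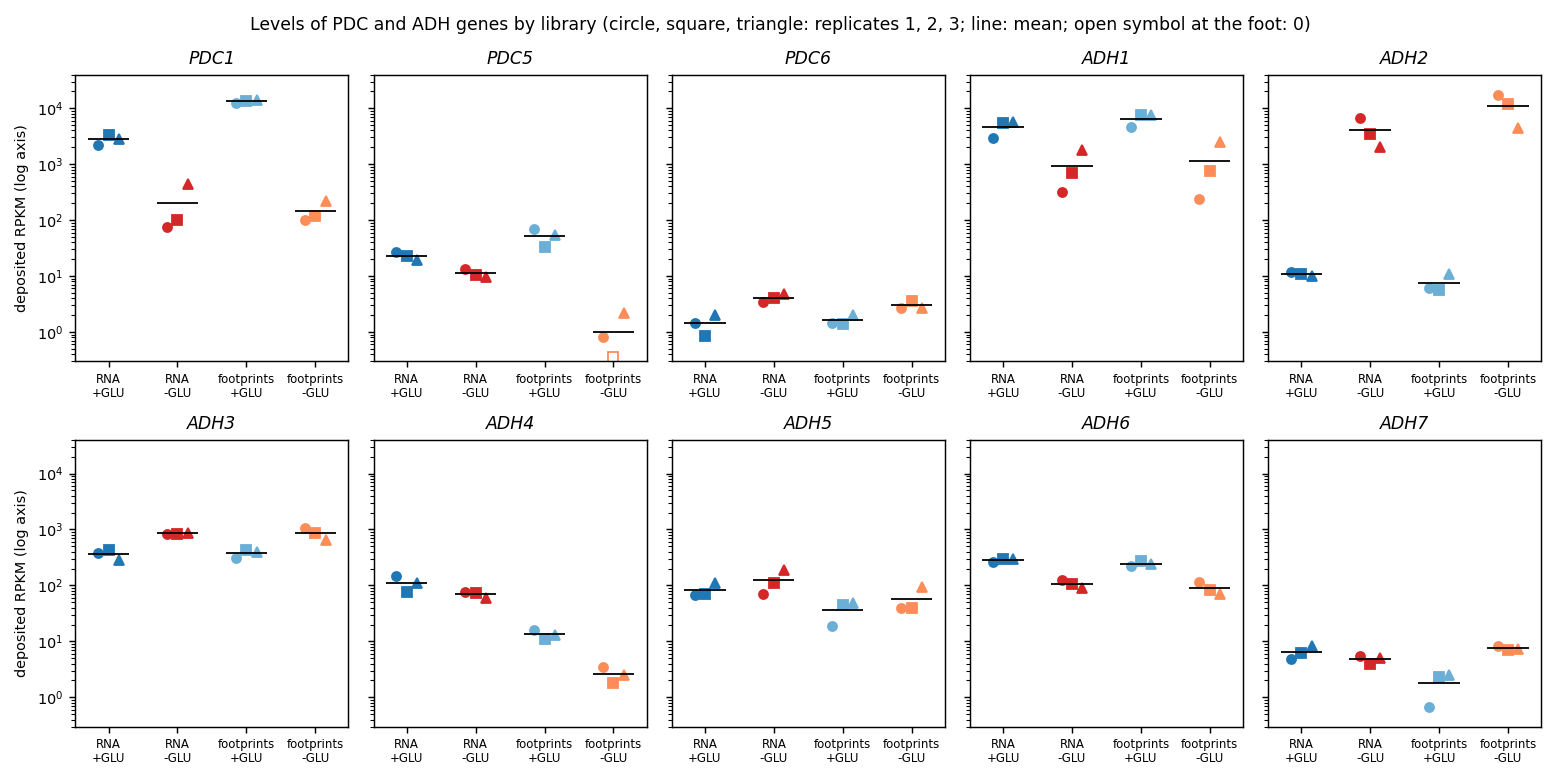
Deposited RPKM of each gene on a log axis, by assay and glucose state; symbols are replicates 1, 2 and 3, the line is the mean, and an open symbol at the foot is a value of 0. PDC1 and ADH1 fall without glucose, ADH2 rises from about 11 to between 2039 and 6726 RPKM of mRNA, and replicate 3 without glucose is the highest of its group for PDC1 and ADH1 and the lowest for ADH2.

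Of the 10 genes, 3 rose and 5 fell in mRNA without glucose at an adjusted p of 0.05, beside 30.4% of 5519 tested genes that rose and 30.2% that fell. ADH2, ADH3 and PDC6 rose, PDC1, PDC5, ADH1, ADH4 and ADH6 fell, and ADH5 and ADH7 did not pass the test. For the same 3 and 5 genes no -GLU library fell within the +GLU range, beside 34.5% and 33.9% of all genes tested. Since 60.6% of all genes were called in either direction, the members' counts stand near the background, and what follows describes their sizes. The cultures were measured in bulk and scaled to all counted reads, so fewer cells with an mRNA and less of it per cell cannot be told apart. Scaling by total counts in place of TMM moved the median log2 change of all genes from 0.01 to 0.15 in mRNA, from 0.10 to 0.55 in footprints and from 0.13 to 0.36 in efficiency. All tests are edgeR quasi-likelihood F tests adjusted over all genes tested, log2 changes are -GLU over +GLU, and their standard errors (SE) are approximate.

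PDC1, the main decarboxylase, lost most of its mRNA. Its level was 2214, 3345 and 2863 RPKM in the +GLU libraries and 74.9, 101 and 434 RPKM in the -GLU libraries. The groups did not overlap, with replicate 3 the highest of the -GLU group. The log2 change was -3.90 ± 0.77 (SE, n = 3 per group), 14.9-fold lower, with an adjusted p of 0.00215, and -5.22 without -GLU replicate 3.

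PDC1 footprints fell further still. They were 12442, 13556 and 14122 RPKM in glucose and 102, 118 and 222 RPKM without it, again without overlap. The log2 change of -6.96 ± 0.57 (SE, n = 3 per group) is 125-fold lower with an adjusted p of 5.57e-05, and it was the 4th lowest of 5319 genes tested. In glucose the 3 decarboxylase genes together took 2.09% to 2.37% of all footprint counts, and without it 0.0176% to 0.0385%.

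PDC5, the minor decarboxylase that is known to stand in when PDC1 is lost, fell modestly in mRNA and steeply in footprints. Its mRNA level was 26.7, 23.3 and 19.2 RPKM with glucose and 13.2, 10.6 and 9.64 RPKM without it, with no overlap. The log2 change in mRNA was -1.20 ± 0.24 (SE, n = 3 per group), with an adjusted p of 0.00199. PDC5 footprints were 70.2, 32.5 and 54.2 RPKM with glucose and 0.828, 0 and 2.21 RPKM without it. The 3 -GLU values come from 11, 0 and 9 counts, and 3 counts, the limit that a count of 0 allows, would be 1.22 CPM (counts scaled to the library's total) in replicate 2. This gave a log2 change in footprints of -6.16 ± 0.61 (SE, n = 3 per group), with an adjusted p of 1.25e-04, the 12th lowest of 5319, and it was -6.75 without -GLU replicate 3.

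PDC6, a decarboxylase of low abundance, went the other way in mRNA. It had 31, 4 and 8 counts of mRNA in the +GLU libraries and 66, 83 and 85 in the -GLU libraries, or 0.844 to 1.98 against 3.41 to 4.74 RPKM. The log2 change of mRNA was 1.41 ± 0.43 (SE, n = 3 per group), with an adjusted p of 0.0181. The call was lost without +GLU replicate 1 (adjusted p = 0.0625) or +GLU replicate 2 (adjusted p = 0.0609). Its footprints, 1.38 to 2.03 RPKM against 2.65 to 3.65 RPKM, did not overlap as deposited, but they overlapped after TMM scaling and the log2 change of 0.44 ± 0.36 (SE, n = 3 per group) did not pass the test (adjusted p = 0.319).

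Summed over PDC1, PDC5 and PDC6, which removes the question of which copy a read was given to, the log2 change was -3.81 ± 0.73 in mRNA (adjusted p = 0.00173) and -6.93 ± 0.56 in footprints (adjusted p = 5.18e-05, SE, n = 3 per group in both). Without -GLU replicate 3 the mRNA sum stood at -4.99. If reads that fit several genes were left out in counting, they are missing from the sum as well.

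ADH1, the main fermentative dehydrogenase, fell in both assays. Its mRNA was 2920, 5424 and 5780 RPKM with glucose and 315, 692 and 1765 RPKM without it. The groups did not overlap, although the -GLU libraries were widely spread. This is a log2 change in mRNA of -2.47 ± 0.70 (SE, n = 3 per group), 5.55-fold lower, with an adjusted p of 0.0133. It was -3.45 without -GLU replicate 3, and the call was lost without -GLU replicate 2 (log2 -2.27, adjusted p = 0.0575).

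In footprints ADH1 was 4616, 7504 and 7422 RPKM with glucose and 240, 741 and 2446 RPKM without it. Again the groups did not overlap and replicate 3 was the highest of the -GLU group. For ADH1 footprints the log2 change was -2.99 ± 0.80 (SE, n = 3 per group), 7.94-fold lower, with an adjusted p of 0.0127. It was -4.16 without -GLU replicate 3 and -2.78 (adjusted p = 0.0514) without -GLU replicate 2.

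ADH2, the ethanol-oxidising enzyme, showed the largest change of the 10 genes in both assays. Its mRNA was 11.7, 11.0 and 10.1 RPKM with glucose and 6726, 3485 and 2039 RPKM without it. The lowest -GLU library was thus far above every +GLU library. For ADH2 mRNA the log2 change was 8.36 ± 0.60 (SE, n = 3 per group), 329-fold higher, with an adjusted p of 1.40e-05, the 17th highest of 5519. ADH2 footprints rose from 6.11, 5.63 and 11.0 RPKM to 16955, 11727 and 4387 RPKM, a log2 change of 10.09 ± 0.83 (SE, n = 3 per group) with an adjusted p of 5.91e-05, the 18th highest of 5319. In the +GLU RNA libraries ADH2 had 0.400%, 0.203% and 0.174% as many counts as its near copy ADH1, and in the +GLU footprints 0.0750% to 0.148%. The part of reads shared with ADH1 in the low +GLU values of ADH2, and so in the size of the fold change, was not tested.

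ADH3, the mitochondrial enzyme, rose 2.10-fold in mRNA. Its level was 378, 429 and 281 RPKM with glucose and 831, 831 and 879 RPKM without it, so the groups did not overlap. The log2 change in mRNA was 1.07 ± 0.28 (SE, n = 3 per group), with an adjusted p of 0.00926, and 0.94 with an adjusted p of 0.0597 without +GLU replicate 3. Footprints of ADH3 went from 305, 433 and 394 RPKM to 1062, 862 and 658 RPKM, without overlap. Their log2 change of 0.76 ± 0.30 (SE, n = 3 per group) missed the threshold (adjusted p = 0.0540). It passed without -GLU replicate 3 (log2 0.94, adjusted p = 0.00428) and, with all libraries, in DESeq2 (log2 0.72, adjusted p = 0.0284).

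Summed over ADH1, ADH2, ADH3 and ADH5, the 4 genes that share sequence with each other, the log2 change was 0.02 ± 0.49 in mRNA (adjusted p = 0.971) and 0.49 ± 0.48 in footprints (adjusted p = 0.396, SE, n = 3 per group in both). Both summed changes were near 0 within a wide error, while ADH1 and ADH2 moved in opposite directions. The sum turned negative in mRNA without +GLU replicate 1 (log2 -0.26) or -GLU replicate 1 (log2 -0.18).

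ADH4, the iron-type enzyme, fell in mRNA and more in footprints. Its mRNA was 145, 75.4 and 110 RPKM with glucose and 75.3, 73.1 and 59.1 RPKM without it, which just misses overlap. Its log2 change in mRNA was -0.81 ± 0.22 (SE, n = 3 per group), with an adjusted p of 0.00998, and -0.68 with an adjusted p of 0.0577 where libraries were scaled by total counts. Its footprints were few in both states, at 16.0, 10.9 and 13.2 RPKM with glucose and 3.48, 1.80 and 2.54 RPKM without it. The -GLU values come from 31, 5 and 7 counts, and the log2 change in footprints was -2.67 ± 0.33 (SE, n = 3 per group) with an adjusted p of 3.37e-04.

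ADH5, an enzyme close to ADH1 in sequence, did not change beyond its spread. Its mRNA lay between 67.1 and 111 RPKM with glucose and between 69.7 and 187 RPKM without it, overlapping, with a log2 change of 0.45 ± 0.40 (SE, n = 3 per group, adjusted p = 0.354). Its footprints lay between 18.9 and 47.6 RPKM and between 39.4 and 93.3 RPKM, with a log2 change of 0.15 ± 0.45 (SE, n = 3 per group, adjusted p = 0.786). The sign of both changed when -GLU replicate 3 was left out (log2 -0.06 in mRNA, -0.34 in footprints).

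The NADPH-dependent reductases ADH6 and ADH7 differed. ADH6 mRNA fell from 263, 296 and 298 RPKM to 123, 107 and 88.6 RPKM, a log2 change of -1.60 ± 0.22 (SE, n = 3 per group, adjusted p = 2.93e-04). Its footprints fell from 226, 268 and 241 RPKM to 117, 82.8 and 69.0 RPKM, a log2 change of -1.88 ± 0.27 (SE, n = 3 per group, adjusted p = 6.82e-04). Neither pair of groups overlapped.

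ADH7 was scarce. Its mRNA was 4.76, 6.30 and 8.16 RPKM with glucose and 5.44, 3.92 and 5.03 RPKM without it, overlapping (log2 -0.53 ± 0.39, SE, n = 3 per group, adjusted p = 0.274). ADH7 footprints rose from 0.679, 2.28 and 2.46 RPKM, which are 3, 21 and 17 counts, to 8.32, 6.88 and 7.30 RPKM, which are 70, 18 and 19 counts. That is a log2 change in footprints of 1.55 ± 0.47 (SE, n = 3 per group, adjusted p = 0.0205). That call was lost without +GLU replicate 2 (adjusted p = 0.0580) or -GLU replicate 1 (adjusted p = 0.0630).

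In footprints 2 of the 10 genes rose (ADH2 and ADH7) and 5 fell (PDC1, PDC5, ADH1, ADH4 and ADH6), beside 33.8% of 5319 tested genes that rose, 31% that fell and 64.8% called in either direction. With ADH3, 3 genes lay higher and 5 lower without overlap after scaling, beside 36.7% and 35.5%. Poly(A) selection was the same, on cellulose, in +GLU RNA replicate 1, the library that stood apart in its group, and in the 3 -GLU RNA libraries. Among these 4, 1 member rose (ADH2, log2 8.46) and 3 fell (PDC5, ADH4 and ADH6), beside 15.6% of 5575 genes that rose and 16.1% that fell, in a fit that assumes the lone +GLU library to vary like the others. PDC1 (log2 -3.32, adjusted p = 0.0692), ADH1 (log2 -1.55, adjusted p = 0.266), PDC6 (log2 1.54, adjusted p = 0.0813) and ADH3 (log2 1.22, adjusted p = 0.0730) kept their direction there without passing the test.

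**Figure D2:**
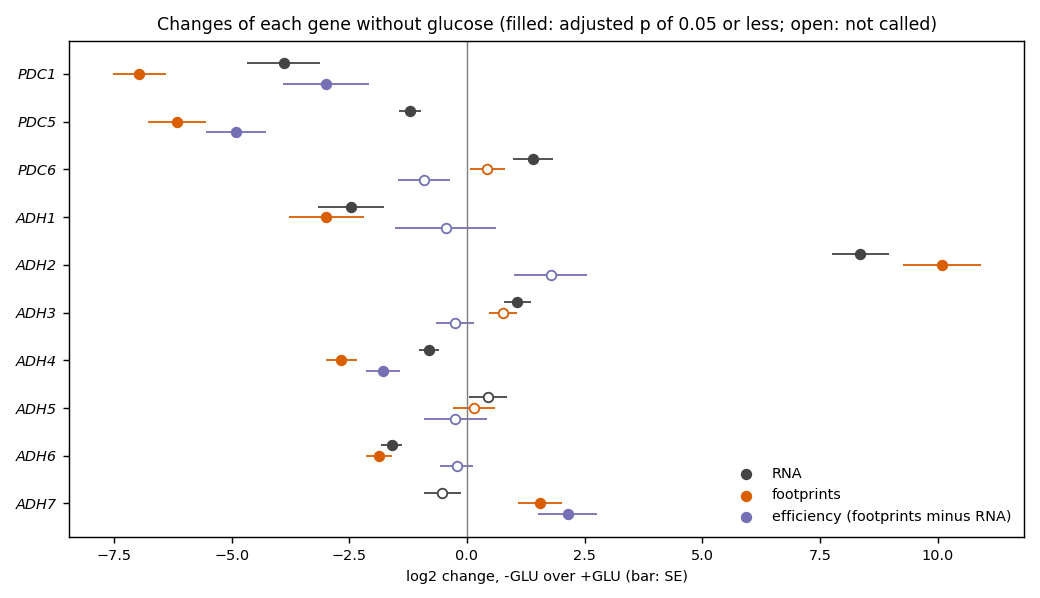
Log2 change of each gene, -GLU over +GLU, in mRNA, in footprints and in efficiency (footprints relative to mRNA), with SE bars; filled points passed an adjusted p of 0.05. ADH2 lies far to the right at 8.36 and 10.09, PDC1 and PDC5 far to the left in footprints at -6.96 and -6.16, and the mRNA and footprint changes of PDC5, ADH4 and ADH7 lie well apart.

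Within the dehydrogenase family ADH1 and ADH2 exchanged places. ADH1 made up 83.5 ± 5.67% of the summed ADH RPKM of mRNA with glucose and 17.4 ± 16.1% without it (SD, n = 3). ADH2 made up 0.212 ± 0.0843% and 63.0 ± 21.1% (SD, n = 3). By library, the ADH2 share of -GLU mRNA was 82.6%, 65.7% and 40.6%, and the ADH1 share 3.87%, 13.1% and 35.1%, so that in replicate 3 the pair was nearly level. Without that library the mean -GLU share of ADH1 in mRNA was 8.46%.

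In footprints the ADH1 share went from 90.3 ± 1.21% to 12.9 ± 16.6% and the ADH2 share from 0.107 ± 0.0347% to 78.8 ± 18.8% (SD, n = 3). By library the -GLU footprint share of ADH2 was 92.0%, 87.1% and 57.2%, and that of ADH1 1.30%, 5.51% and 31.9%, so replicate 3 was again the lowest for ADH2 and the highest for ADH1. Without that library the mean -GLU share of ADH1 was 3.40%. The ADH3 share was 7.01 ± 2.87% and 14.5 ± 3.80% of mRNA, and 5.32 ± 0.517% and 6.92 ± 1.48% of footprints (SD, n = 3). For ADH1, ADH2 and the mRNA share of ADH3 the groups did not overlap, which gives a p of 0.1 in the two-sided exact permutation test, the smallest that 3 libraries against 3 can give. The footprint share of ADH3 had an exact permutation p of 0.2.

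PDC1 remained the main decarboxylase gene in both states. It held 99.1 ± 0.307% of the summed PDC RPKM of mRNA with glucose and 88.7 ± 7.56% without it, and 99.6 ± 0.162% and 97.2 ± 0.591% of the footprints (SD, n = 3, exact permutation p = 0.1 for both). The PDC5 share of mRNA was 0.849 ± 0.297% with glucose and 8.58 ± 6.16% without it, at 14.4%, 9.16% and 2.15% in the -GLU libraries. In footprints the PDC5 share was 0.394 ± 0.161% and 0.586 ± 0.516%, which overlapped (SD, n = 3, exact permutation p = 0.6).

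**Figure D3:**
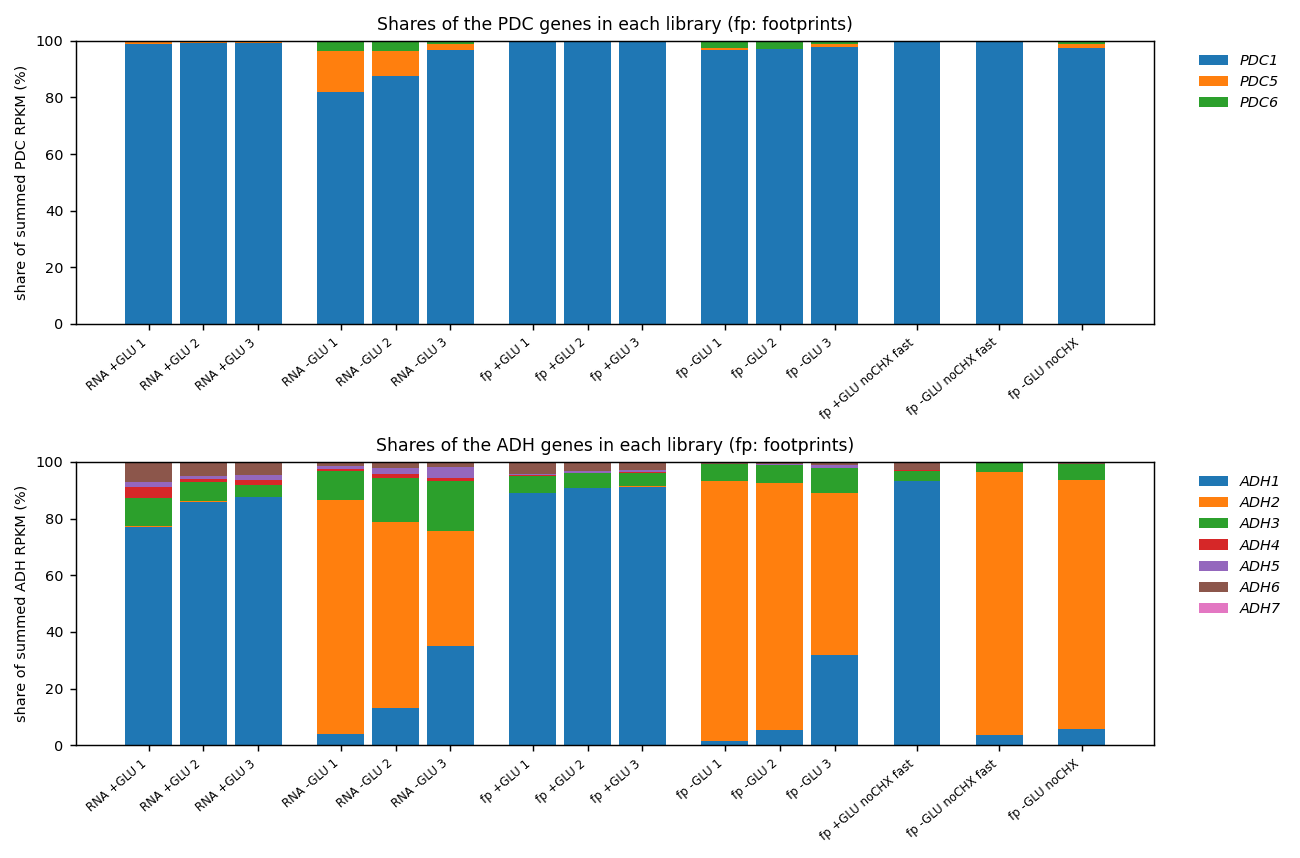
Share of each gene in the summed RPKM of the PDC genes (top) and of the ADH genes (bottom), as stacked bars from 0 to 100%, for each of the 15 libraries. With glucose the ADH bars are mostly ADH1, without it mostly ADH2, except that -GLU RNA replicate 3 holds 35.1% ADH1 and 40.6% ADH2; PDC1 fills most of each PDC bar.

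Efficiency, the footprint level relative to the mRNA level, was compared between states in 1 fit over 12 libraries. All footprints in it were from the libraries with cycloheximide. Of the 10 genes, 1 rose (ADH7) and 3 fell (PDC1, PDC5 and ADH4), beside 9.24% of 5509 tested genes that rose, 4.48% that fell and 13.7% called in either direction. The other 6 did not pass the test. The propagated SD given below with a ratio of footprint to mRNA RPKM treats RNA and footprint libraries as independent. In -GLU, RNA and footprint libraries of the same number deviated together over all genes (r = 0.39 to 0.61). That SD may therefore overstate the spread of the -GLU ratios. The efficiency fit also treats these libraries as independent, so its SE and p-values carry the same limit. A fit that leaves out 1 -GLU library keeps the other library of that number.

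PDC5 had the lowest efficiency change of all genes tested. Its log2 change in efficiency was -4.91 ± 0.64 (SE, n = 3 per group and assay) with an adjusted p of 0.00144, and between -5.55 (without -GLU footprints 3) and -4.49 with any single library left out, called each time. In glucose PDC5 footprint RPKM was 2.27 ± 0.900 times its mRNA RPKM, higher than in 98.3% of the genes with at least 10 mRNA counts in each library, and without glucose 0.0909 ± 0.101 times (propagated SD, n = 3). The -GLU ratio was 0.0372 without -GLU footprints 3 and 0.136 without -GLU footprints 2. It rests on the 11, 0 and 9 footprint counts given above, against 257, 221 and 174 mRNA counts. PDC5 had 0.674% to 1.21% as many mRNA counts as PDC1 in glucose and 2.24% to 17.7% without it, and 0.241% to 0.568% and 0% to 0.999% as many footprint counts. The part of reads shared with PDC1 in the efficiency of PDC5 was not tested.

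PDC1 also fell in efficiency, with a log2 change of -3.00 ± 0.91 (SE, n = 3 per group and assay) and an adjusted p of 0.0464. In glucose its footprint RPKM was 4.76 ± 1.01 times its mRNA RPKM (propagated SD, n = 3), higher than in 99.98% of genes. Without glucose the ratio was 0.725 ± 0.784, near the median of 0.698 over all genes, and 1.68 without -GLU RNA replicate 3. The efficiency call of PDC1 was close to the threshold: it was lost in 9 of the 12 fits that leave out 1 library. Those libraries were the 3 +GLU RNA, the 3 +GLU footprint, -GLU footprints 1 and 2 and -GLU RNA 3, with adjusted p-values from 0.0582 to 0.102 and log2 changes from -3.42 to -1.86 (without -GLU RNA 3). Without -GLU RNA 1 it was called at -3.63. For the sum of PDC1, PDC5 and PDC6 the log2 change in efficiency was -3.06 ± 0.86 (SE, n = 3 per group and assay, adjusted p = 0.0369), and that call was lost in 8 of the 12 (log2 -3.66 without -GLU RNA 1 and -2.05 without -GLU RNA 3, both called). In 2 fits added after seeing the data, PDC1 itself was called. It stood at -2.06 (adjusted p = 0.0124) without both -GLU number 3 libraries. With a block for the replicate number within each glucose state it stood at -2.59 (adjusted p = 0.00587).

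ADH4 had few ribosomes for its mRNA in both states. Its ratio of footprint to mRNA RPKM was 0.121 ± 0.0448 in glucose, higher than in 4.61% of genes, and 0.0377 ± 0.0131 without it, higher than in 0.550% (propagated SD, n = 3). The log2 change in efficiency was -1.79 ± 0.37 (SE, n = 3 per group and assay), with an adjusted p of 0.00933, and the call held with any single library left out (log2 -2.19 to -1.62).

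ADH7 rose in efficiency, with a log2 change of 2.14 ± 0.62 (SE, n = 3 per group and assay) and an adjusted p of 0.0412. Its ratio was 0.282 ± 0.170 in glucose and 1.56 ± 0.299 without it (propagated SD, n = 3). The call was lost in 10 of the 12 fits that leave out 1 library, all but those without +GLU RNA 1 and without -GLU footprints 3, with log2 changes from 1.77 to 2.39 and adjusted p-values up to 0.142. It was also lost with the DESeq2 size factors (log2 2.03, adjusted p = 0.0504).

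The ratio of ADH2 was 0.692 ± 0.275 in glucose and 2.70 ± 2.22 without it (propagated SD, n = 3), higher than in 62.2% and 97.3% of genes. Its log2 change in efficiency, 1.78 ± 0.77 (SE, n = 3 per group and assay), did not pass the test (adjusted p = 0.142), but passed without -GLU footprints 3 (log2 2.16, adjusted p = 0.0376). It also passed in the 2 fits added after seeing the data. These left out both -GLU number 3 libraries (adjusted p = 0.0279) or used a block for the number within each glucose state (adjusted p = 0.0195). For ADH1 the ratio was 1.38 ± 0.576 and 1.24 ± 1.61 (propagated SD, n = 3), with a log2 change in efficiency of -0.45 ± 1.08 (SE, n = 3 per group and assay, adjusted p = 0.808). The -GLU ratio of ADH1 was 0.531 without -GLU footprints 3 and 2.27 without -GLU RNA 3. ADH3, ADH5 and ADH6 had log2 changes in efficiency between -0.26 and -0.22, with adjusted p-values of 0.696 to 0.833, and ratios of 1.04, 0.449 and 0.859 in glucose and 1.02, 0.468 and 0.843 without it. The sign for ADH5 turned with total-count scaling (log2 0.05), and for ADH1 without -GLU RNA 3 (log2 0.37) or -GLU footprints 1 (log2 0.02). For ADH1 it stayed negative without both -GLU number 3 libraries (log2 -0.65) and with the block within each glucose state (log2 -0.66). Neither of these passed the test. PDC6, with a log2 change in efficiency of -0.91 ± 0.56 (SE, n = 3 per group and assay, adjusted p = 0.286), had under 10 mRNA counts in some +GLU libraries, so no ratio is given for that state.

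**Figure D4:**
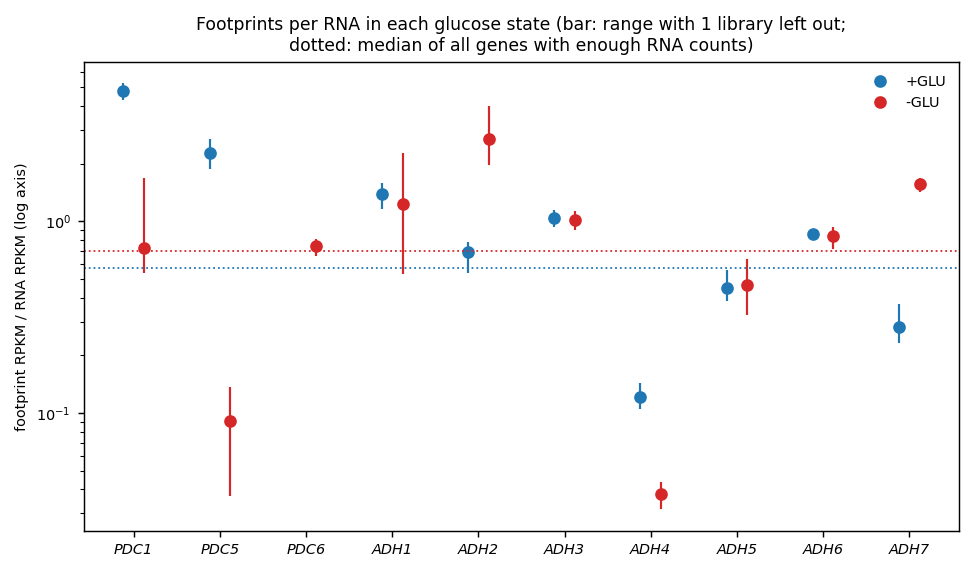
Ratio of mean footprint RPKM to mean mRNA RPKM of each gene on a log axis, in the +GLU and -GLU states; bars span the values with 1 library left out and dotted lines are the medians over all genes with enough mRNA counts. PDC1 goes from 4.76 to 0.725 and PDC5 from 2.27 to 0.0909, ADH4 is low in both states, and without glucose the bars reach from 0.0372 to 0.136 for PDC5, from 0.531 to 2.27 for ADH1 and from 0.540 to 1.68 for PDC1.

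Footprints without cycloheximide showed the same exchange, in 1 library per state and so without a test; the intervals given cover counting error only. In the fast-harvested pair PDC1 stood at 16432 RPKM with glucose and 807 RPKM without it. After scaling to library totals that is 20.4-fold lower (95% interval 20 to 20.8), a log2 ratio of -4.35, against -6.96 in the replicated cycloheximide libraries. PDC5 was 16.5-fold lower (11.9 to 23.5), from 2176 to 37 counts, a log2 ratio of -4.04. With replicated libraries likewise scaled by total counts, PDC1 changed by -3.8 in mRNA and -6.5 in cycloheximide footprints (log2). PDC5 changed by -1.1 and -5.7. The PDC1 footprint ratio in the fast pair thus lay nearer to the mRNA change than with cycloheximide. Efficiency without cycloheximide was not tested. ADH1 was 9.04-fold lower (8.86 to 9.22) and ADH2 5339-fold higher (4606 to 6225), from 176 to 263404 counts. The ADH2 share of the summed ADH RPKM was 0.0506% and 93.0% in this pair.

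The other dehydrogenases moved less. ADH3 was 2.34-fold higher (2.28 to 2.40), ADH5 1.76-fold higher (1.55 to 1.99), ADH6 2.62-fold lower (2.46 to 2.80) and ADH4 4.61-fold lower (3.06 to 7.29, from 395 to 24 counts). The interval of ADH7, a ratio of 1.69 (0.908 to 3.03), includes no change. Without cycloheximide ADH7 stood at 1.98 RPKM (18 counts) in the fast -GLU library and 0.585 RPKM (1 count) in the other -GLU library. Both lay below the 6.88 to 8.32 RPKM of the -GLU cycloheximide libraries. PDC6 was 3.84-fold lower (2.31 to 6.83, from 219 to 16 counts), opposite in sign to its log2 change of 0.44 with cycloheximide, which had not passed the test. At least a 2-fold ratio was reached upward by ADH2 and ADH3 and downward by PDC1, PDC5, PDC6, ADH1, ADH4 and ADH6, beside 32.3% and 19.4% of 5414 genes.

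The -GLU library without cycloheximide that was not titled fast stood lower than the fast one in several members. Among members whose interval left out no change, the differences were largest for PDC1 and ADH2. In the library not titled fast PDC1 was 6.49-fold lower (5.82 to 7.26), at 124 against 807 RPKM. ADH2 was 2.19-fold lower there (2.16 to 2.22), at 13714 against 30042 RPKM. The PDC1 level of the library not harvested fast lay between the 102 and 222 RPKM of the -GLU cycloheximide libraries. ADH1 was 1.33-fold lower (1.26 to 1.41) and ADH3 and ADH6 were within 1.24-fold, with intervals that also left out no change. The intervals of PDC5, PDC6, ADH4, ADH5 and ADH7 included no change, with 1 to 70 counts in the library not harvested fast. Of 5315 genes, 12.6% were at least 2-fold lower and 8.86% at least 2-fold higher in it. Harvest and library cannot be told apart here.

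**Figure D5:**
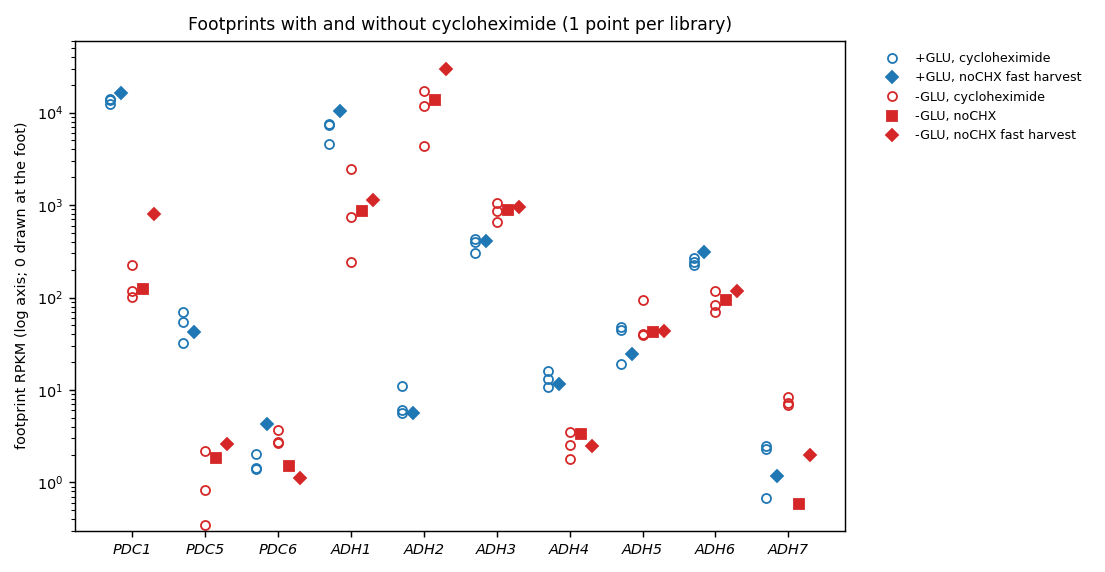
Footprint RPKM of each gene on a log axis, 1 point per library, with cycloheximide (open circles) and without it (filled; diamonds for fast harvest, square for the -GLU library without it); a value of 0 is drawn at the foot. The filled points repeat the fall of PDC1, PDC5 and ADH1 and the rise of ADH2, and the fast -GLU library stands above the other -GLU libraries for PDC1 (807 RPKM) and ADH2 (30042 RPKM).

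Genes on the neighbouring routes were read from lists of known pathway members. A list of 10 genes on other routes of pyruvate covered the mitochondrial pyruvate carrier, pyruvate dehydrogenase and pyruvate carboxylase. Of these 10, 8 rose in mRNA and none fell, beside 30.4% of all genes that rose and 30.2% that fell. Also none fell at an unadjusted p of 0.05 or in DESeq2. The median log2 change was 1.33 against 0.01 over all genes. MPC3, a subunit of the mitochondrial pyruvate carrier, rose by 5.84 on the log2 scale and PYC1, a pyruvate carboxylase, by 3.73, and the pyruvate dehydrogenase genes PDA1 (1.93), PDB1 (1.42) and LPD1 (1.80) rose as well. In footprints 5 of the 10 rose and PYC2, the other pyruvate carboxylase, fell (log2 -2.17), beside 33.8% and 31% of all genes. LPD1 was among those that rose (log2 1.55). PDA1 (log2 0.20, adjusted p = 0.481) and PDB1 (log2 0.38, adjusted p = 0.183) did not pass edgeR's test in footprints. In efficiency PYC2 (log2 -1.82) and PDA1 (log2 -1.67) fell, beside 4.48% of all genes, and 4 fell in DESeq2 and at an unadjusted p of 0.05.

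Of 7 genes that carry acetaldehyde on to acetyl-CoA, the direction in which ADH2 works, 4 rose in mRNA and 1 fell (median log2 2.02), beside 30.4% and 30.2% of all genes. ACS1, an acetyl-CoA synthetase, rose by 7.73 and ALD4, a mitochondrial aldehyde dehydrogenase, by 6.57 on the log2 scale, while ALD5, another mitochondrial aldehyde dehydrogenase, fell (log2 -2.16). In footprints 4 rose and 2 fell (median log2 2.17, against 0.10 over all genes), beside 33.8% and 31%. DESeq2 called 3 up and 2 down in footprints. In efficiency ACS1 rose (log2 3.13), beside 9.24% of all genes.

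Of 11 regulators known to act on PDC or ADH genes, 4 rose in mRNA and none fell, nor did any at an unadjusted p of 0.05 or in DESeq2 (median log2 -0.11). The count that rose stands near the 30.4% of all genes that did, and 30.2% of all genes fell. The activators of glucose-repressed genes SIP4 (log2 5.88), CAT8 (log2 5.83) and ADR1 (log2 5.58) rose together with ZAP1, the zinc-responsive activator (log2 1.16). PDC2, the activator of the PDC genes, stood at a log2 change of 0.04 (adjusted p = 0.904). In footprints 5 regulators rose and TYE7, an activator of glycolytic genes, fell (log2 -1.49), beside 33.8% and 31% of all genes. In efficiency THI2, an activator of thiamine genes, rose (log2 2.27), 1 of 11 beside 9.24%.

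The upstream regions were searched because ADH2 carries the textbook binding element of Adr1, an inverted pair spelled CTCCAANNNNNNNNTTGGAG. In the 600 nt before the start codon, read from R64, this element was present in ADH2 alone of the 10 genes and in 3 of 6005 genes (0.05%) in all, either strand giving the same letters. Since ADH2 was known to carry it, the match in ADH2 was fixed beforehand and is no finding. The count over all genes holds only for this exact spelling and spacing. In ADH2 the element lies 291 to 272 nt before the start codon on chromosome XIII (minus strand), shown here in capitals.
ADH2 upstream: gcatCTCCAACTTATAAGTTGGAGaaat

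The single element TTGGAG, on either strand, stood before ADH2 and ADH4 and before 22.8% of all genes, and each inverted pair holds 2 of them. The carbon source response element searched as CCNNNNNNCCG, on either strand, stood before ADH2, ADH3 and ADH6 and before 24.7% of all genes. A match is a description of these letters in the reference strain and shows no binding.

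Of 9 genes for thiamine synthesis and uptake that could be tested, which supply the cofactor of the decarboxylases, 1 rose in mRNA (THI6, log2 0.72) and 2 fell (THI80, log2 -1.83, and THI22, log2 -0.64), with a median log2 of 0.11, beside 30.4% and 30.2% of all genes. In footprints 3 of 7 rose (THI6, THI20 and THI73) and THI80 fell, beside 33.8% and 31%, and in efficiency THI20 (log2 1.09) and THI22 (log2 1.68) rose, 2 of 9 beside 9.24%. Of the 4 genes of the glycerol branch, which regenerates NAD+ by another route, GPD1 rose in mRNA (log2 1.54) and GPP1 fell (log2 -3.85), beside the same 30.4% and 30.2%. In footprints GPP1 fell (log2 -5.16), the 1 that passed edgeR's test, while 2 fell in DESeq2 and at an unadjusted p of 0.05, beside 31% of all genes in edgeR. No glycerol gene passed edgeR's test in efficiency, while 1 fell in DESeq2 and at an unadjusted p of 0.05.

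Of 9 other alcohol, aldehyde and 2-oxo acid enzymes, 5 rose in mRNA and 1 fell (median log2 2.21), beside 30.4% and 30.2% of all genes. BDH1, a butanediol dehydrogenase, rose by 4.06 and GCY1, an aldo-keto reductase, by 3.99 on the log2 scale, and ARI1, an aldehyde reductase, fell (log2 -2.64). In footprints 5 rose and 2 fell, beside 33.8% and 31%, and in efficiency none passed in edgeR or DESeq2, with 2 up and 1 down at an unadjusted p of 0.05.

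The genes whose pattern over the 12 replicated libraries was most like that of ADH1 were the glycolytic genes FBA1 (r = 0.99), PGK1 (r = 0.98) and GPM1 (r = 0.97). The measure was Pearson's r of log2(CPM + 1), with each gene centred on its own mean within each assay. Nearest to PDC1 were GPP1, VMA5 and YNL108C (r = 0.99 for each), and nearest to ADH2 were ATG39, LEE1 and SIP2 (r = 1.00 for each). The libraries fall into 2 glucose states and 2 assays, and the centring removes a gene's mean difference between the assays. These values therefore describe likeness over the glucose states and replicates, and no test was made.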

How the data were processed

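RNA and ribosome footprints of 1 yeast strain were sequenced with and without glucose. The authors deposited counts per gene, whole numbers and not normalised. In 2 columns (-GLU RNA 1 and 2) the values as deposited are called expected counts, since 1 entry in each, YPR203W, is not whole; that gene was left out of every library and no other value needed rounding. The authors also deposited RPKM values. From counts and RPKM together, the counted length was the coding length less 24 nt in 12 libraries and plus 2 nt in 3 (+GLU RNA 1, -GLU RNA 3 and -GLU footprints 3). The same 3 libraries stood apart from their replicates in rank correlation, and a link between the 2 was not tested. Not given in the sources used here are aligner, counter, genome build and strand use. Per the labels, cycloheximide stands in the treatment text shared by all libraries, while the descriptions of 3 libraries say that it was omitted; the descriptions were followed.

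Of 5704 genes listed, 5703 were analysed, grouped by the titles of the libraries. edgeR 4.0.16 (R 4.3.3) gave the tests: quasi-likelihood F test, TMM factors, filterByExpr with a minimum count of 10, and Benjamini-Hochberg adjustment over all genes tested at 0.05. RNA and footprints were fitted on 6 libraries each, and efficiency as the interaction of assay and glucose state on 12. The SE is the log2 change over the square root of F. Shares used RPKM and exact permutation tests; libraries without cycloheximide were described with exact 95% intervals, which, like the limit set by 3 counts (0.239 to 1.25 CPM in the replicated libraries), cover counting error only because reads have no molecular identifiers. The code was tested on simulated data. There, log2 changes of size 1 were recovered in 32% of genes in mRNA, 39% in footprints and 13% in efficiency. Changes of size 2 were recovered in 96%, 93% and 69%. A gene that did not pass may therefore still have changed. Alternatives were DESeq2 1.42.0 and its size factors, total counts, no filter, a replicate block, each library left out, cellulose RNA libraries only, near-identical genes summed and 1 fit over 12 libraries. The members and lists were chosen with earlier results of these data known; every member is named, with list genes chosen by pathway. Protein identity had been planned, and coding identity in R64 was used instead. No coordinates are printed because the authors' build is unstated.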

Additional observations from a re-analysis of the deposited data

How the results depend on the processing

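Over 499 combinations of a gene and an alternative, 441 kept direction and call, 40 lost the call, 7 gained it and 11 changed sign. The calls of PDC5, ADH2 and ADH6 in mRNA, of PDC1, PDC5, ADH2, ADH4 and ADH6 in footprints and of PDC5 and ADH4 in efficiency held under every alternative run. With the cellulose RNA libraries alone, 1764 genes were called in mRNA against 3343, with 1 member up and 3 down, and ADH7 turned to a log2 of 0.067; the fit has fewer libraries. With the DESeq2 size factors 0 members rose in efficiency. With total counts ADH5 turned to 0.047 in efficiency. A further 2 fits were added after seeing the data. With both -GLU number 3 libraries left out, 1378 genes were called in efficiency against 756, 2 members rose (ADH2 and ADH7) and ADH3 turned to 0.010. With a block for the number within each glucose state, 1431 genes were called and the same 2 rose (ADH2 log2 1.78, adjusted p = 0.0195).

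With any 1 library left out, ADH5 lay between -0.056 and 0.768 (log2) in mRNA, between -0.340 and 0.351 in footprints and between -0.765 and 0.090 in efficiency, and ADH1 between -1.64 and 0.372 in efficiency. The ADH sum lay between -0.257 and 0.191 in mRNA. Genes called in efficiency numbered 273 to 1034, members called up in efficiency 0 to 2 and in footprints 1 to 3, and the -GLU ratio of PDC1 was 0.540 to 1.68. The cause of these moves was not tested.

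Of the genes called in footprints 1798 rose and 1648 fell, against 2416 and 1200 with total counts. In efficiency 509 rose and 247 fell, against 379 and 326 with the DESeq2 size factors, 559 and 525 in DESeq2, and 769 and 137 with total counts.

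The replicate numbers do not pair the states: same-numbered +GLU and -GLU libraries correlated between -0.13 and -0.03 in RNA and at 0.06 to 0.07 in footprints. A replicate block across states gave 3134 calls in mRNA, 3281 in footprints (against 3446) and 779 in efficiency, and lost or gained no member's call. Within the -GLU state RNA and footprint libraries of 1 number correlated best with each other (0.39 to 0.61), and within +GLU 2 of 3 did. Depth limits PDC5, PDC6, ADH4 and ADH7 most, with under 25 counts in at least 1 footprint library each.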
